A study of Homo sapiens with 15 samples.

Results

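The interferon response factors and effectors described here were 9 genes chosen by symbol, namely IRF1, IRF2, IRF7, IRF9, STAT2, GBP1, ISG15, IFI6 and OAS1. They were 9 of the 47459 gene rows with values, and each was found once by its Ensembl identifier. All of them were measured in MM.1S, a human multiple myeloma cell line, in 5 groups of 3 libraries taken after 6 h of treatment. The groups were dCBP-1, the combination of A-485 with GNE-781, GNE-781 alone, A-485 alone, and DMSO as the vehicle, with each compound at 100 nM. The titles and the protocol name GNE-781 for the combination, but the treatment label reads GNE-782 for its replicate 2 and GNE-783 for its replicate 3, and the titles were followed. A-485 blocks the acetyltransferase site of the coactivators CBP and p300, and GNE-781 blocks their bromodomains. dCBP-1 links a bromodomain ligand akin to GNE-781 to a ligand of the ubiquitin ligase receptor cereblon, which makes it a degrader of both proteins; protein levels were not measured. The cells of all groups were of this 1 line, and the labels name no added interferon. RNA was read from the 3′ ends of transcripts, and levels are normalized read counts, which do not scale with transcript length.

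Type I and type III interferons act through cell surface receptors and JAK kinases, which phosphorylate STAT factors. STAT2 and IRF9 are parts of the complex ISGF3, which binds interferon stimulated response elements (ISRE) in the promoters of antiviral genes. Interferon gamma instead acts through STAT dimers at gamma activated sites (GAS), and IRF1 is among the first genes it induces. IRF1 and IRF2 bind the same DNA sites, IRF1 mostly as an activator and IRF2 mostly as a competing repressor. CBP and p300 are coactivators of STAT and IRF factors.

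The sequences below are the 250 bases before the gene start of 4 members whose windows hold a motif core and which passed the test in dCBP-1 (RefSeq, GRCh38.p14). They are IRF1 at chr5:132490774-132491023 on the minus strand, GBP1 at chr1:89065209-89065458 on the minus strand, ISG15 at chr1:1013247-1013496 on the plus strand, and IFI6 at chr1:27672193-27672442 on the minus strand. Each is written 5′ to 3′ on the strand of its gene, and capitals mark a match to the ISRE core, which is GAAA, any 2 bases and GAAA again (GBP1, ISG15, IFI6) or to the GAS core TTCNNNGAA (IRF1), searched on both strands.
IRF1: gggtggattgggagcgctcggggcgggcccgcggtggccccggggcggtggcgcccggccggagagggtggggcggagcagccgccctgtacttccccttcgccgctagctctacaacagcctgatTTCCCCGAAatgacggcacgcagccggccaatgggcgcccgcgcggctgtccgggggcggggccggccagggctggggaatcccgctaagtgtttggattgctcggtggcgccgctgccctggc
GBP1: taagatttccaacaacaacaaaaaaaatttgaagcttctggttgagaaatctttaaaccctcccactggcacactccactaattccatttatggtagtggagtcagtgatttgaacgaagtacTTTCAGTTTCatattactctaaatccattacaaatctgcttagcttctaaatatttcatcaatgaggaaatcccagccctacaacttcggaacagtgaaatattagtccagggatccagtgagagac
ISG15: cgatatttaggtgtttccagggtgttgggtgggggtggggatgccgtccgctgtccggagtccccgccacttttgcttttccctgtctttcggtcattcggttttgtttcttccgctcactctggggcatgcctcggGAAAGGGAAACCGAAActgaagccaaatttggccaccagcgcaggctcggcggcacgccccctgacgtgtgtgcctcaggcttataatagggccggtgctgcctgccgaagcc
IFI6: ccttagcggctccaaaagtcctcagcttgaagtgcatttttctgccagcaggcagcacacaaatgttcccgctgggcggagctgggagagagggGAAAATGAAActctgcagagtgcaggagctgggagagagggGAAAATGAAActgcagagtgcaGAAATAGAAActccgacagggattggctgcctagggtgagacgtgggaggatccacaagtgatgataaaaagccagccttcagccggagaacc
The search covered windows of 250 bases before to 50 bases after the start, which were at hand for 7 of the 9 members, not for IRF2 and IRF7. An ISRE core lay in 3 of these 7 windows. GBP1 held 1, on the opposite strand, 127 to 118 bases before its start. ISG15 held 2 that overlap, 113 to 104 and 107 to 98 bases before its start, and IFI6 held 3, at 156 to 147, 115 to 106 and 93 to 84 bases before. A GAS core lay in the windows of IRF1, 124 to 116 bases before the start, IRF9, 63 to 55 bases before, and OAS1, 168 to 160 bases before. STAT2 held neither core. Only exact matches were counted, so related sites with another spacing would not appear here. Of all 35116 windows of this length, 3.57% held the ISRE core and 7.66% held the GAS core.

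**Figure D1:**
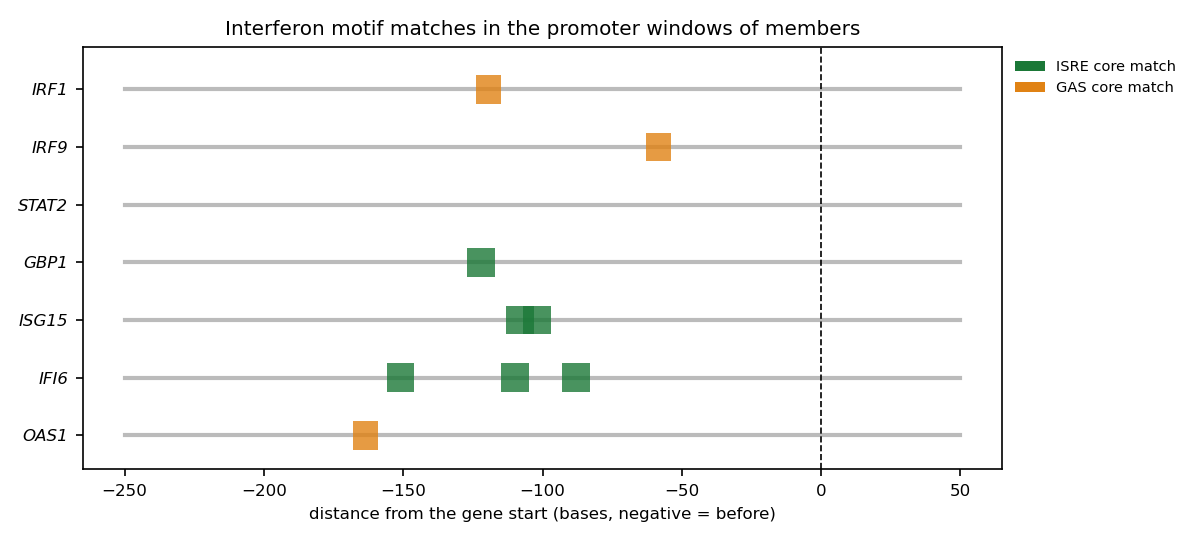
Positions of the ISRE core (green) and GAS core (orange) in the windows of 7 members, as distance from the gene start in bases, with the start at 0. IFI6 holds 3 ISRE cores, ISG15 2 that overlap and GBP1 1, all before the start, and STAT2 holds none of either kind.

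Depth ran from 13.1 to 18.3 M reads per library. DMSO replicates 1 and 2 stood apart, with 23.1% and 19.7% of reads from mitochondrially encoded genes, against 14.3% to 17.0% in the 12 treated libraries and 16.4% in DMSO replicate 3. With all libraries thinned to 13.1 M reads, those 2 held reads of 16287 and 17386 genes, against 18727 to 20578 in the treated libraries and 19676 in DMSO replicate 3. Calls of members against DMSO are therefore given also without both of them, which leaves DMSO replicate 3 as the only control, assumed to vary like the other groups. All 9 plasma cell markers were detected, and their summed level was 25725 to 27244 in dCBP-1, 34819 to 43958 in the combination, 38517 to 42981 in GNE-781, 49611 to 62907 in A-485 and 65604 to 68956 in DMSO. Summed B cell markers reached at most 18.2, T and NK cell markers 12.7, and monocyte and dendritic cell markers 17.5 in any library. CD3D, NKG7 and CSF1R were at 0 in all 15 libraries. The erythroid, epithelial and stromal list, mostly HBB, summed to 30.7 to 47.4 in dCBP-1, 49.4 to 80.8 in the combination, 59.1 to 79.7 in GNE-781, 107 to 153 in A-485 and 82.6 to 148 in DMSO. The part of these marker levels in the results was not tested.

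Of 22 interferon genes listed, 21 were in the table used here, and 19 of these had 0 reads in all libraries. The other 2, IFNA21 and IFNW1, had 10 reads over all 15 libraries together and at most 3 reads in 1 library, which is the limit that a count of 0 allows. None reached the level needed for a test. How reads shared among these related genes were counted is not stated, so counts of 0 do not show that the transcripts were absent.

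In dCBP-1 the pair IRF1 and IRF2 fell, and the other members that passed the test changed in both directions. IRF2 fell 4.32-fold and IRF1 2.17-fold relative to DMSO, while IRF7 rose 1.66-fold and GBP1 1.77-fold. In all, 6 of the 9 members passed the test, where 37.8% of the 16104 genes tested did. By direction, 3 members rose (IRF7, GBP1, IFI6), beside 19.3% of all genes, and 3 fell (IRF1, IRF2, ISG15), beside 18.5%. The median log2 fold change of the members was −0.06, against 0.07 over all genes tested. The test was limma on log2(value + 1), which understates changes of low genes, with Benjamini-Hochberg adjustment over all genes, and a gene is called where the adjusted p was below 0.05. All 9 members passed the filter on low values. In RNA from bulk cells, fewer cells of a type and less RNA per cell cannot be told apart.

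IRF2 (ENSG00000168310), the competing repressor at IRF sites, had the largest change among the members. Its normalized read counts were 214, 212 and 279 in dCBP-1, 449, 594 and 521 in the combination, 562, 608 and 613 in GNE-781, 1191, 1035 and 859.5 in A-485, and 865, 941 and 1272 in DMSO. Every dCBP-1 library lay below every combination and GNE-781 library, and those lay below every A-485 and DMSO library, while A-485 and DMSO overlapped. The level averaged 235 ± 37.7 in dCBP-1 and 1026 ± 217 in DMSO (SD, n = 3 each), log2 fold change −2.11 ± 0.16 (SE; limma adjusted p = 1.1e-11). It fell by 0.96 on the log2 scale in the combination (limma adjusted p = 9.8e-05) and by 0.77 in GNE-781 (limma adjusted p = 0.0015), both against DMSO. In A-485 the value was 0.01, with a 95% interval of −0.32 to 0.34. Without DMSO replicates 1 and 2 the log2 fold changes were −2.44 in dCBP-1, −1.29 in the combination and −1.10 in GNE-781, all 3 still called.

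IRF1 (ENSG00000125347), the activator of the pair, was also lowest in dCBP-1, with smaller steps between groups. It measured 1090.5, 918 and 1067 in dCBP-1, 1592, 1852 and 1568 in the combination, 1532, 1448 and 1652 in GNE-781, 2209, 2125 and 1971 in A-485, and 2040.2, 2119.7 and 2522 in DMSO. The dCBP-1 libraries were the lowest, the combination and GNE-781 libraries overlapped in the middle, and A-485 and DMSO overlapped at the top. The log2 fold change against DMSO was −1.12 ± 0.13 (SE) in dCBP-1 (limma adjusted p = 3.4e-08), −0.41 in the combination (limma adjusted p = 0.02) and −0.52 in GNE-781 (limma adjusted p = 0.0048). For A-485 it was −0.08, with an interval of −0.34 to 0.18. The combination call was lost without combination replicate 1, combination replicate 3 or DMSO replicate 3 (limma adjusted p up to 0.073). It was also lost when only the combination and DMSO were fitted. Without DMSO replicates 1 and 2 the log2 fold change in the combination was −0.60. In dCBP-1 and GNE-781 the values without those 2 libraries were −1.30 and −0.71, both called.

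IRF1 is overlapped on the opposite strand by IRF1-AS1 (ENSG00000197536), and no source used here says whether reads were counted by strand, so the reads of the pair cannot be told apart with certainty. IRF1-AS1 ranged from 764 to 894 in dCBP-1, 917 to 1052 in the combination, 1007 to 1153 in GNE-781, 1556 to 2072 in A-485, and 2034 to 2313 in DMSO. Its log2 fold change against DMSO was −1.42 in dCBP-1, −1.16 in the combination and −1.05 in GNE-781, and each of the 3 was called. Between dCBP-1 and the combination it differed by −0.27 (limma adjusted p = 0.31), where IRF1 differed by −0.70 (limma adjusted p = 0.00026).

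IRF7 (ENSG00000185507), the factor that drives transcription of interferon alpha genes in plasmacytoid dendritic cells, went the other way. It measured 740.3, 793 and 734 in dCBP-1, 547, 599 and 684 in the combination, 527, 564 and 639.6 in GNE-781, 481, 429 and 329 in A-485, and 446, 484 and 435 in DMSO. All dCBP-1 libraries lay above all others, the combination and GNE-781 libraries lay between, and A-485 overlapped with DMSO at the bottom. The rise in dCBP-1 was 0.73 ± 0.15 on the log2 scale (SE; limma adjusted p = 0.00026), and 0.80 without DMSO replicates 1 and 2 (limma adjusted p = 0.0059). In the combination IRF7 rose by 0.42 (limma adjusted p = 0.045), a call that was lost under 9 alternatives, among them each single DMSO library left out, both DMSO replicates 1 and 2 left out (limma adjusted p = 0.18), and a replicate block (limma adjusted p = 0.07). GNE-781 had 0.34 (limma adjusted p = 0.12), a value that was called under TMM and quantile scaling (limma adjusted p = 0.047 and 0.029).

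**Figure D2:**
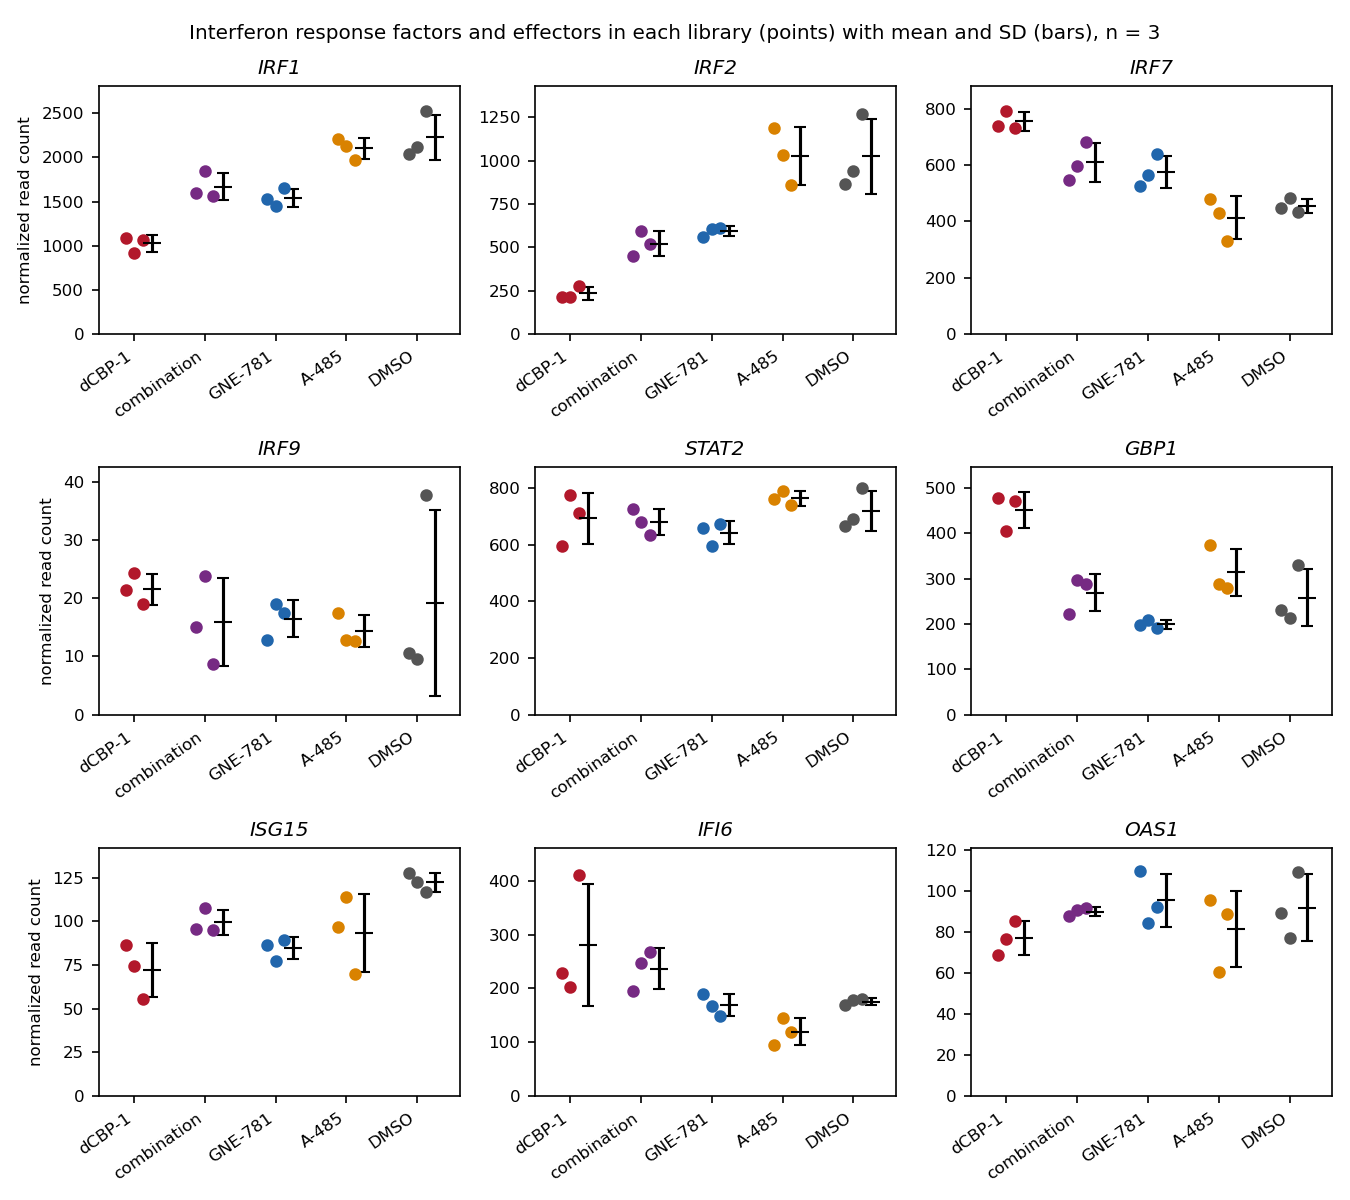
Normalized read count of each member (panels) in each library (points) by treatment, with the mean and SD of the 3 libraries as the bar beside them. IRF1 and IRF2 are lowest in dCBP-1 and IRF7 and GBP1 highest there, while the STAT2, IRF9 and OAS1 libraries of dCBP-1 and DMSO overlap.

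STAT2 and IRF9, both parts of ISGF3, were not called in any comparison. STAT2 (ENSG00000170581) measured 596, 774 and 710.2 in dCBP-1, 724, 679 and 632 in the combination, 658, 595 and 673 in GNE-781, 760.5, 789 and 739 in A-485, and 665, 692 and 799 in DMSO. The A-485 libraries lay above all combination and GNE-781 libraries, and all other pairs of groups overlapped. The 95% interval of dCBP-1 against DMSO was −0.33 to 0.22 on the log2 scale, so a change of the size seen in IRF1 lies outside it. IRF9 (ENSG00000213928) was the lowest of the members, at 21.4, 24.2 and 19 in dCBP-1, 15.1, 23.8 and 8.74 in the combination, 12.9, 19 and 17.5 in GNE-781, 17.5, 12.9 and 12.7 in A-485, and 10.6, 9.49 and 37.6 in DMSO. These levels rest on 8 to 31 reads per library, and DMSO replicate 3 was the highest of the 15 libraries, while the other 2 DMSO libraries were among the lowest. The interval of dCBP-1 against DMSO, −0.56 to 1.41, is wide enough to hold the rises of IRF7, GBP1 and IFI6. Other genes overlap both on the same strand. ENSG00000259529, which overlaps IRF9, was at 0 to 9.31 normalized read counts. RNU7-40P, which overlaps STAT2, was at 0.961 to 15.3. How reads shared with them were counted is not stated.

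Among the effectors, GBP1 and IFI6 rose and ISG15 fell in dCBP-1. These are the 3 members with an ISRE core among the 7 whose windows were at hand, which leave out IRF2 and IRF7. Each of their calls depended on DMSO replicates 1 and 2, as given below. GBP1 (ENSG00000117228), a guanylate binding protein of cell-intrinsic defence that interferon gamma strongly induces, measured 477, 405 and 471 in dCBP-1, 222, 297 and 287 in the combination, 199, 209 and 190.1 in GNE-781, 373, 288 and 279.9 in A-485, and 231, 213 and 330.2 in DMSO. All dCBP-1 libraries lay above all others, and the GNE-781 libraries were the lowest. GBP1 averaged 451 ± 39.5 in dCBP-1 and 258 ± 63.2 in DMSO (SD, n = 3 each), log2 fold change 0.83 ± 0.18 (SE; limma adjusted p = 0.00052). Without DMSO replicates 1 and 2 it was 0.44 and no longer called (limma adjusted p = 0.16). DMSO replicate 3 was the highest of the DMSO libraries. GNE-781 had −0.34 (limma adjusted p = 0.2), A-485 0.30 (limma adjusted p = 0.45) and the combination 0.07 (limma adjusted p = 0.81). GBP1 has close paralogs and a pseudogene, and how reads shared with them were counted is not stated.

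IFI6 (ENSG00000126709), a mitochondrial and endoplasmic reticulum protein with antiviral and antiapoptotic roles, measured 229, 202 and 411 in dCBP-1, 194, 248 and 269 in the combination, 189.7, 168 and 149 in GNE-781, 94.5, 145 and 119 in A-485, and 168, 178 and 179.6 in DMSO. The combination and dCBP-1 libraries lay above all DMSO libraries and the A-485 libraries below all of them, while GNE-781 overlapped with DMSO. The rise in dCBP-1 was 0.60 ± 0.22 (SE; limma adjusted p = 0.032) and depended on dCBP-1 replicate 3, the highest of the 15 libraries. Without it the value was 0.29 (limma adjusted p = 0.34), and without DMSO replicates 1 and 2 it was 0.57 (limma adjusted p = 0.2). Leaving out DMSO replicate 1 or DMSO replicate 2 alone also ended the call (limma adjusted p = 0.073 and 0.061). The combination had 0.42 and A-485 −0.57, both with a limma adjusted p of 0.19.

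ISG15 (ENSG00000187608), a ubiquitin-like protein that is joined to other proteins during the interferon response, measured 86.6, 74.3 and 55.7 in dCBP-1, 95.6, 108 and 95 in the combination, 86.6, 77.3 and 89.5 in GNE-781, 96.6, 114 and 69.6 in A-485, and 128, 122 and 117 in DMSO. Every treated library lay below every DMSO library. The fall in dCBP-1 was 0.77 ± 0.23 on the log2 scale (SE; limma adjusted p = 0.0096). It was no longer called without dCBP-1 replicate 3 (−0.60, limma adjusted p = 0.074) or without DMSO replicates 1 and 2 (−0.71, limma adjusted p = 0.12). The other treatments had −0.30 (combination, limma adjusted p = 0.4), −0.53 (GNE-781, limma adjusted p = 0.12) and −0.41 (A-485, limma adjusted p = 0.41).

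OAS1 (ENSG00000089127), which makes the signal that activates the antiviral nuclease RNase L, measured 68.9, 76.7 and 85.4 in dCBP-1, 87.6, 90.5 and 91.7 in the combination, 109.6, 84.5 and 92.3 in GNE-781, 95.6, 60.6 and 88.6 in A-485, and 89.4, 77 and 109 in DMSO. Each treatment overlapped with DMSO. The interval of dCBP-1 against DMSO was −0.73 to 0.24, and no comparison called the gene.

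In the combination against DMSO, 3 of the 9 members were called, IRF1 and IRF2 lower and IRF7 higher, where 21% of all genes tested were called (11.4% higher, 9.6% lower). In GNE-781, 2 were called, IRF1 and IRF2, both lower, beside 16.6% of all genes (7.82% higher, 8.81% lower). In A-485, 0 members were called by limma, edgeR and DESeq2, beside 2.14% of all genes by limma (0.348% higher, 1.79% lower), with 1 member (IFI6) at an unadjusted p below 0.05. The 4 comparisons share the DMSO libraries, so the values are set side by side only. Without DMSO replicates 1 and 2, 3 members were called in dCBP-1 (IRF7 higher, IRF1 and IRF2 lower) and 2 each in the combination and GNE-781, both lower. Over all genes these fits called 7.75% higher and 15.8% lower in dCBP-1, 1.76% and 4.84% in the combination, and 0.987% and 4.5% in GNE-781.

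**Figure D3:**
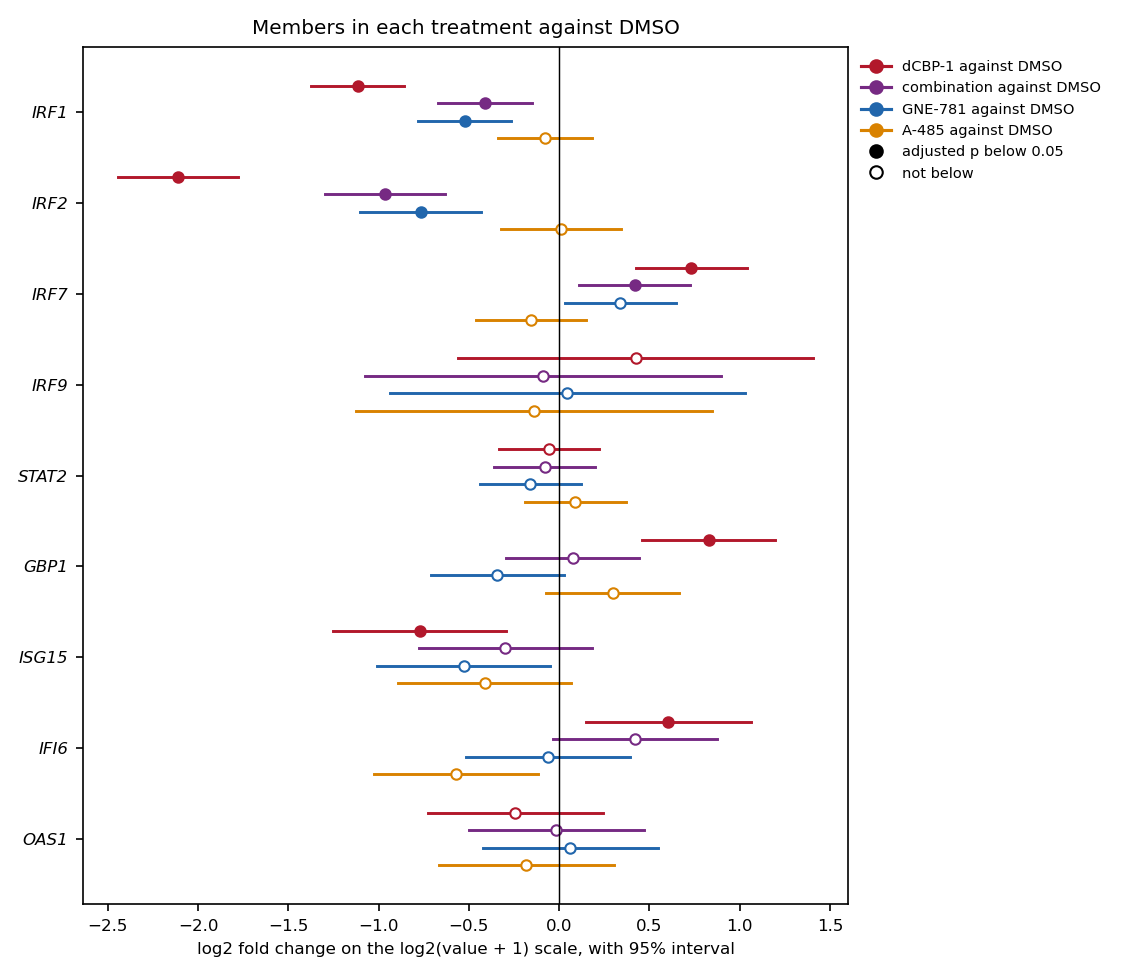
Log2 fold change of each member in each treatment against DMSO, on the log2(value + 1) scale, with the 95% interval as a line, and with filled points where the limma adjusted p was below 0.05. IRF1 and IRF2 have filled points left of 0 in dCBP-1, the combination and GNE-781 and open points in A-485, and IRF7, GBP1 and IFI6 lie right of 0 in dCBP-1.

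The treatments were also compared with each other at the same dose and time, in 6 pairs, with p-values adjusted over the genes of each pair. dCBP-1 against the combination sets the degrader of both proteins beside the joint block of both domains. Here IRF1 and IRF2 were lower in dCBP-1, and GBP1 was higher, 3 of 9 members, where 6.17% of all genes tested were called (0.553% higher, 5.61% lower). IRF2 differed by −1.15 ± 0.16 (SE; limma adjusted p = 7e-06), IRF1 by −0.70 ± 0.13 (limma adjusted p = 0.00026), and GBP1 by 0.75 ± 0.18 (limma adjusted p = 0.0067). The GBP1 call was lost without combination replicate 1 (0.62, limma adjusted p = 0.054). IRF7 had 0.31 with an interval of 0.01 to 0.62 (limma adjusted p = 0.29), although its groups did not overlap, and IFI6 had 0.19 with an interval of −0.27 to 0.64.

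Against GNE-781, which shares the bromodomain ligand type but has no cereblon arm, the same 3 members were called in dCBP-1, beside 9.31% of all genes (2.19% higher, 7.13% lower). IRF2 differed by −1.34 ± 0.16 (SE; limma adjusted p = 3.4e-07), IRF1 by −0.59 ± 0.13 (limma adjusted p = 0.0017), and GBP1 by 1.17 ± 0.18 (limma adjusted p = 2e-05). IRF7, at 0.39 (limma adjusted p = 0.1), and IFI6, at 0.67 (limma adjusted p = 0.056), lay above every GNE-781 library in every dCBP-1 library but were not called, and both were called under TMM, median-ratio and quantile scaling. ISG15 had −0.24, with an interval of −0.72 to 0.23.

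In dCBP-1 against A-485, 5 of 9 members were called, beside 24.5% of all genes (12.9% higher, 11.6% lower). IRF2 differed by −2.12 ± 0.16 (SE; limma adjusted p = 1.5e-11) and IRF1 by −1.04 ± 0.13 (limma adjusted p = 2.2e-07). IFI6 was higher by 1.18 (limma adjusted p = 0.00019), IRF7 by 0.89 (limma adjusted p = 4.2e-05) and GBP1 by 0.53 (limma adjusted p = 0.03). The GBP1 call was lost without A-485 replicate 2, A-485 replicate 3, dCBP-1 replicate 1 or dCBP-1 replicate 3, with limma adjusted p-values up to 0.12.

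**Figure D4:**
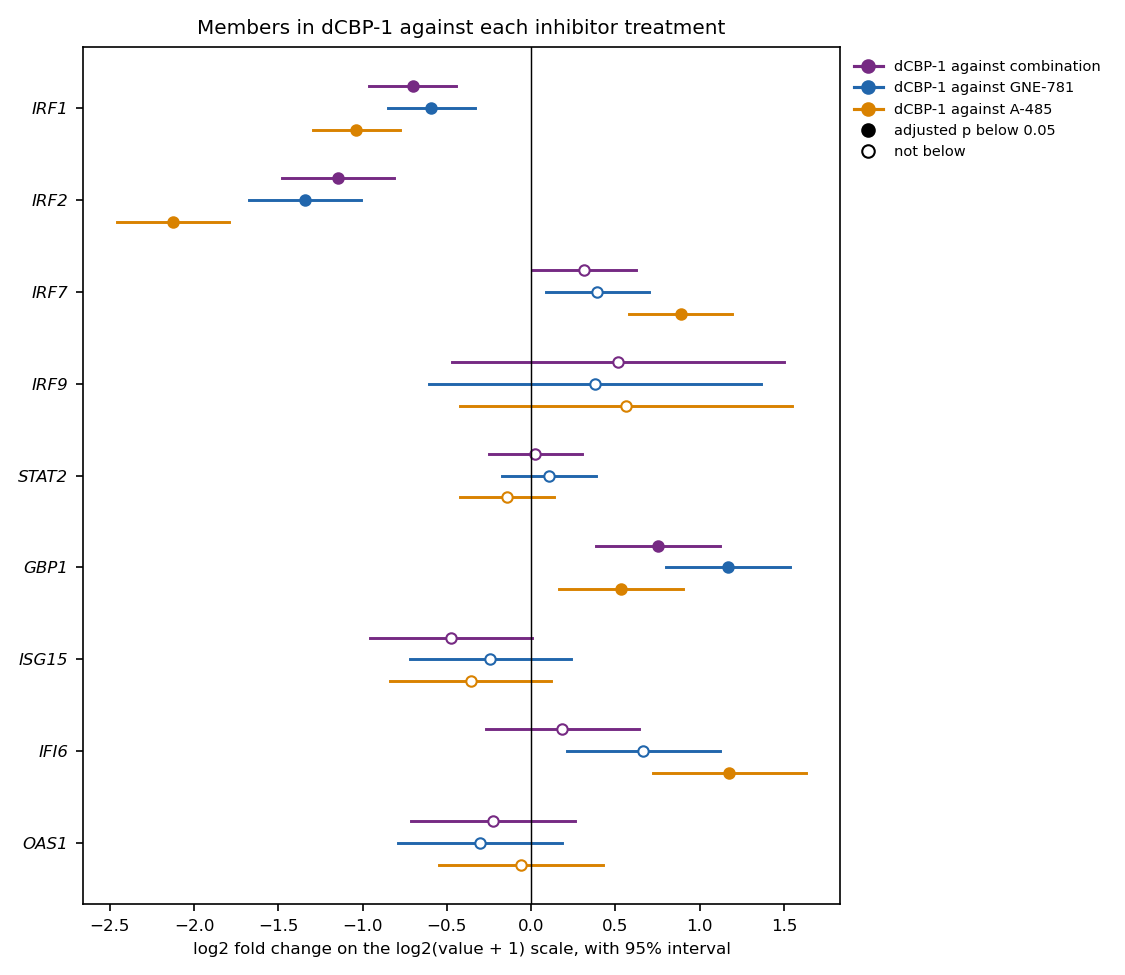
Log2 difference of each member in dCBP-1 against the combination, GNE-781 and A-485, on the log2(value + 1) scale, with the 95% interval as a line and filled points where the limma adjusted p was below 0.05. IRF1 and IRF2 lie left of 0 and GBP1 right of 0 in all 3 comparisons, and IRF9, STAT2, ISG15 and OAS1 have open points throughout.

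The combination against GNE-781 asks what the acetyltransferase inhibitor adds to the bromodomain inhibitor, and it called 0 of 16104 genes by limma, edgeR and DESeq2 (background 0%), with 494 genes, GBP1 and IFI6 among them, at an unadjusted p below 0.05 by limma. Their differences were 0.42 for GBP1 (interval 0.05 to 0.79) and 0.48 for IFI6 (interval 0.03 to 0.94). The intervals for IRF1 (−0.15 to 0.37) and IRF2 (−0.53 to 0.14) leave out a step as large as that between dCBP-1 and either of these treatments.

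In the combination against A-485, 3 of 9 members were called, beside 3.2% of all genes (1.63% higher, 1.57% lower). IRF2 differed by −0.98 (limma adjusted p = 0.00051), IFI6 by 0.99 (limma adjusted p = 0.0097) and IRF7 by 0.57 (limma adjusted p = 0.029). All genes tested had a median difference of 0.11 in this pair and of 0.01 after TMM scaling, and these 3 calls held under TMM, median-ratio and quantile scaling. IRF1, at −0.33 (limma adjusted p = 0.15), was called as well under these scalings, lower in the combination, at −0.44 with TMM (limma adjusted p = 0.0074). The IFI6 call was lost without A-485 replicate 1 or combination replicate 2 (limma adjusted p up to 0.061), and the IRF7 call without either of the A-485 replicates 2 and 3 or of the combination replicates 2 and 3, and with a replicate block (limma adjusted p = 0.054). In GNE-781 against A-485, only IRF2 was called, at −0.78 (limma adjusted p = 0.011), beside 1% of all genes (0.273% higher, 0.727% lower), and not without A-485 replicate 1, A-485 replicate 2 or GNE-781 replicate 1 (limma adjusted p up to 0.088).

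The sum of the changes in A-485 and GNE-781 alone was set against the change in the combination on the log2 scale. No member was called by limma, edgeR or DESeq2, beside 0.447% of all genes by limma (0.435% above the sum, 0.0124% below), and 1 member (IFI6) had an unadjusted p below 0.05. IFI6 exceeded the sum by 1.05 ± 0.31 (SE; limma adjusted p = 0.17), and the intervals for IRF1 and IRF2 were −0.18 to 0.56 and −0.68 to 0.26.

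The wider pathway was described with 6 further gene lists, beside the median log2 fold change of 0.07 and the 19.3% higher and 18.5% lower calls over all genes in dCBP-1 against DMSO. Without DMSO replicates 1 and 2 these were a median of −0.12, 7.75% higher and 15.8% lower, so higher calls were fewer over all genes too, and the list counts without those libraries stand beside these shares. Of 8 other IRF factors and IRF2 binding proteins, 5 fell and 1 rose, with a list median of −1.58, and the same counts held without DMSO replicates 1 and 2. IRF4, the factor that myeloma cells depend on and which is also a plasma cell marker here, averaged 232 ± 58 in dCBP-1 and 2335 ± 133 in DMSO (SD, n = 3 each). IRF2BP2, a corepressor that binds IRF2, measured 627, 636 and 466 in dCBP-1, 2925, 3134 and 3420.1 in the combination, and 4625, 5608 and 5832 in DMSO. It fell by 3.22 ± 0.13 on the log2 scale in dCBP-1 (SE; limma adjusted p = 7.2e-18) and by 0.76 in the combination (limma adjusted p = 0.00018). Its relative IRF2BPL fell by 1.97 in dCBP-1 and had −0.28 in the combination (limma adjusted p = 0.27), and the difference between these 2 treatments, −1.68, was itself called (limma adjusted p = 3e-08). IRF8, a factor of myeloid and B cells, was low throughout, with 2.37 to 8.08 in dCBP-1 and 27.9 to 59.1 in DMSO.

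Of 14 interferon receptors, JAK kinases and STATs, 4 fell and 3 rose in dCBP-1, with a median of −0.11. The calls were 4, each of them lower, without DMSO replicates 1 and 2. IFNLR1, the specific receptor chain for type III interferon, measured 175, 204 and 143 in dCBP-1 and 546, 484 and 484 in DMSO, log2 fold change −1.54 (limma adjusted p = 1.1e-08). Both chains of the type I receptor fell, IFNAR1 by 0.70 (limma adjusted p = 0.00018) and IFNAR2 by 0.55 (limma adjusted p = 0.0019). STAT4, which signals for interleukin 12, fell by 1.15.

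Of 18 nucleic acid sensors and adaptors in the table, 16 were tested, with 6 lower and 3 higher in dCBP-1 and a median of −0.19. There were 7 lower and 1 higher without DMSO replicates 1 and 2. ZBP1, a sensor of left-handed nucleic acid, measured 28.9, 27.5 and 41.5 in dCBP-1, 127, 173 and 198 in the combination, 179.5, 203 and 232 in GNE-781, 455, 362 and 356 in A-485, and 830.3, 541 and 528 in DMSO. No dCBP-1 library overlapped with any other group, and the log2 fold change against DMSO was −4.23 ± 0.21 (SE; limma adjusted p = 7.5e-16). TLR7, a sensor of single-stranded RNA, fell by 2.46, UNC93B1, which carries it to endosomes, by 1.96, and the adaptor TRAF3 by 1.11. UNC93B1, which has pseudogene copies, was also called in A-485, at −0.77 (limma adjusted p = 0.014), but not without DMSO replicates 1 and 2, at −0.30 (limma adjusted p = 0.59).

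Of 12 restraints of interferon signalling in the table, 11 were tested, with 4 higher and 2 lower in dCBP-1, a median of 0.30, and 1 higher and 2 lower without DMSO replicates 1 and 2. SOCS1, an inhibitor of JAK kinases that interferon gamma induces, averaged 7.13 ± 4.12 in dCBP-1 and 90.3 ± 38.1 in DMSO (SD, n = 3 each), log2 fold change −3.59 (limma adjusted p = 1.3e-06). The phosphatase PTPN6 (SHP-1) fell by 2.31, and PIAS3, an inhibitor of STAT3, rose by 0.78. USP18, which removes ISG15 from proteins and damps receptor signalling, had 1.30 (limma adjusted p = 0.01), but 0.71 without DMSO replicates 1 and 2 (limma adjusted p = 0.29), and the call was also lost without DMSO replicate 1 alone.

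Of 57 further antiviral interferon stimulated genes, 49 were tested, with 13 lower and 8 higher in dCBP-1 and a median of −0.01. Without DMSO replicates 1 and 2, 13 were lower and 6 higher. EPSTI1 measured 22.3, 46 and 46.2 in dCBP-1 and 240.2, 195 and 186 in DMSO, log2 fold change −2.47 (limma adjusted p = 1.8e-08), and IFIT5, which binds RNA, had −1.79 (limma adjusted p = 2.4e-07). The exonuclease ISG20 was lower than in DMSO in all 4 treatments, by 1.11 in dCBP-1, 0.85 in the combination, 0.77 in GNE-781 and 0.70 in A-485 on the log2 scale, and each was called. The A-485 call was lost without DMSO replicates 1 and 2, at −0.66 (limma adjusted p = 0.13). The aminopeptidase LAP3 fell by 0.98 in dCBP-1.

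Of 33 interferon gamma and IRF1 responsive genes, 28 were tested, with 9 lower and 4 higher in dCBP-1 and a median of −0.09. Without DMSO replicates 1 and 2, 9 were lower and 2 higher. SOCS1 stands in this list too. CXCL10, a chemokine that draws T cells, measured 0, 1.62 and 1.19 in dCBP-1, 3.19, 5.66 and 13.1 in the combination, 16.6, 20.2 and 40.6 in GNE-781, 38, 27.5 and 30 in A-485, and 34.6, 14.8 and 24.3 in DMSO. The dCBP-1 libraries were below all others, the level there being at or under the 3 reads that a count of 0 allows, and dCBP-1 was called against each of the other 4 groups (limma adjusted p = 2.8e-06 against DMSO). The call against the combination was lost under 5 alternatives, among them without combination replicate 3 or dCBP-1 replicate 1 (limma adjusted p up to 0.19). TNFSF10, the death ligand TRAIL, rose by 1.26 ± 0.21 in dCBP-1 (SE; limma adjusted p = 2.2e-05), and SECTM1 fell by 1.06. The 23 genes named from these lists were picked for the smallest p in dCBP-1 against DMSO, so that 22 of them, all but USP18, were called in the same direction without DMSO replicates 1 and 2 describes these genes and not the lists.

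**Figure D5:**
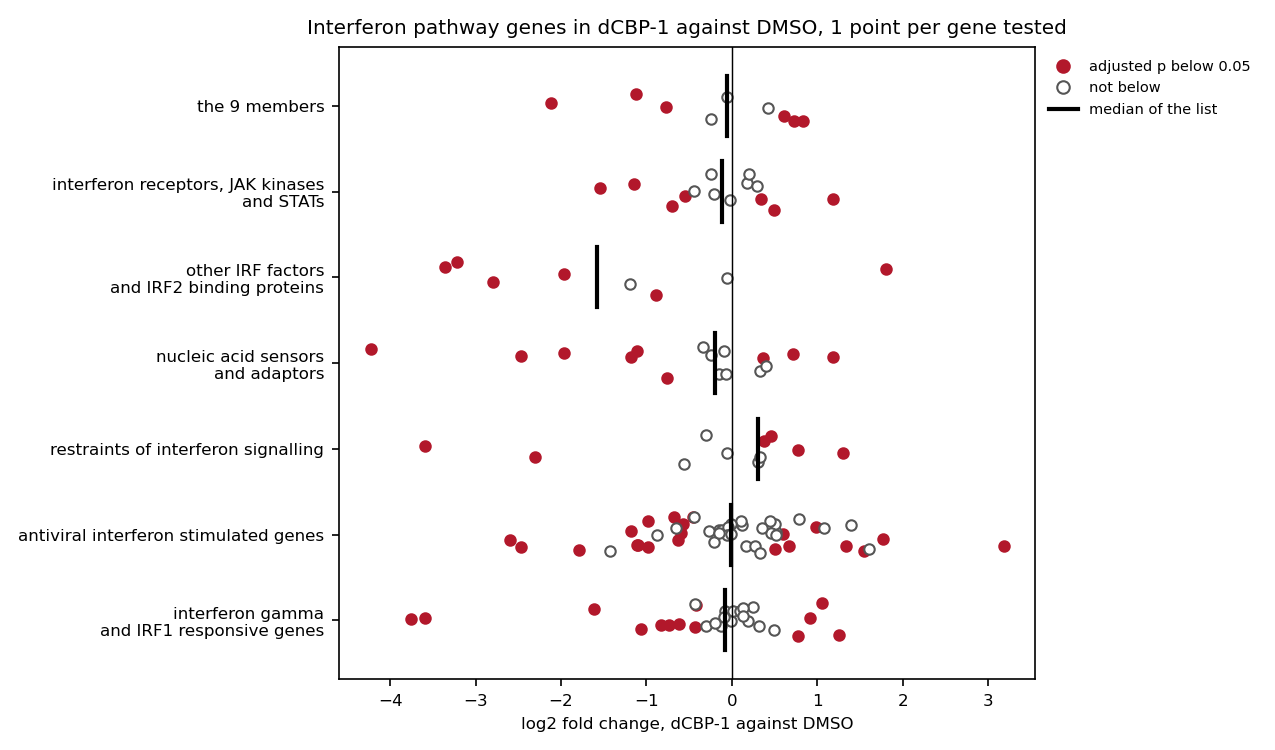
Log2 fold change in dCBP-1 against DMSO of each gene tested (points), by list, with filled points where the limma adjusted p was below 0.05 and a bar at the median of the list. The median is −1.58 for the other IRF factors and IRF2 binding proteins, −0.06 for the members, and lies between −0.19 and 0.30 for the other 5 lists, with filled points on both sides of 0 in each list.

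The genes whose pattern over the 15 libraries was most like that of IRF2, by Pearson correlation of log2(value + 1) among genes at or above the median level, were MGLL (r = 0.99), GUCY1A1 (r = 0.989) and IL16 (r = 0.986). In dCBP-1 against DMSO they fell by 3.10, 2.48 and 1.66 on the log2 scale. For IRF7 they were CBFA2T2 (r = 0.965), TXNDC12 (r = 0.959) and TMEM50B (r = 0.952), which rose by 0.88, 0.46 and 0.59. The points of these correlations share the 5 treatments and their libraries, and the values are descriptions.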

How the data were processed

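RNA of MM.1S cells was made into 15 libraries of 3′ ends (3 per group), per the labels' protocols, with ERCC spike-in controls added at lysis. The submitters' processing notes name hg19. The aligner, the counting tool and its strandedness are not given in the sources used here. The authors deposited a signal for each gene and library, under the name of normalized read counts. Each value was a whole multiple of 1 step per library (100% within 0.01 of a whole read), so reads were recovered from the deposited signal. Values were present for 47459 gene rows, with no ERCC rows among them. Whether the deposited scaling used the spike-ins cannot be told from these rows, so no value is read as RNA per cell. Symbols were found for 96.5% of identifiers. Promoter windows are from RefSeq (GRCh38.p14), and motifs were counted by exact match.

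Values were taken as log2(value + 1). A gene was tested if at least 3 libraries reached a value of 5, which 16104 genes did. The test was limma 3.58.1 (trend) in R 4.3.3, in 1 model of 5 group means, two-sided; p-values of each of 11 comparisons were adjusted over its genes (Benjamini-Hochberg). The pipeline was tested on simulated data. Errors are SD for levels and SE for log2 fold changes. The labels do not say whether replicates came from separate cultures, so p-values reflect the spread among these libraries alone. The chi-square per degree of freedom of reads between replicates was 5.61 to 46.5. The limit of 3 reads covers counting error only.

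The 9 members and the gene lists were chosen with earlier results of these data known. A gene held by 2 of the lists was dropped from both before counting and is not reported here. Besides the members, up to 4 genes per list with the smallest p in dCBP-1 against DMSO are named, and 3 genes each with the pattern most like the member with the clearest fall and the one with the clearest rise. As alternatives, scaling was changed to TMM, median-ratio or quantile, the pseudocount to 0.25 or 5, and the filter to 20 or none. Further fits used the compared groups alone, the replicate number as a block, edgeR 4.0.16 or DESeq2 1.42.0 (recovered reads, deposited scaling), all libraries but 1, or no DMSO replicates 1 and 2.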

Additional observations from a re-analysis of the deposited data

How the results depend on the processing

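Of 99 values (9 members in 11 comparisons), 26 were called, and 16 of these kept their call and direction under all alternatives run. Over all genes, the share called ran from 0% in the combination against GNE-781 to 37.8% in dCBP-1 against DMSO. The count of kept calls has no share over all genes beside it here. Among 1782 alternative values, 38 lost a call, 29 gained one, 0 called values turned their sign, and 71 uncalled values did. IRF9 rests on 8 to 31 reads per library, which limits its tests. Why its count is low was not tested.

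Leaving out DMSO replicates 1 and 2 together gave 3788 called genes (1248 higher, 2540 lower) and 3 called members in dCBP-1, 1064 genes in the combination, 883 in GNE-781, 12 in A-485, and 2 in non-additivity. With only the groups compared, calls against DMSO were 2163 genes and 1 member in the combination and 78 genes in A-485, and 2396 genes and 5 members in dCBP-1 against GNE-781, and 466 genes and 3 members in GNE-781 against A-485. Without the filter, called genes were 178 in A-485 against DMSO, 320 in the combination against A-485 and 13 in non-additivity. DESeq2 called 617 genes in A-485 against DMSO, 980 in the combination against A-485, 348 genes and 3 members in GNE-781 against A-485, and 199 genes in non-additivity. Under TMM, median-ratio and quantile scaling, called members were 5 each in dCBP-1 against GNE-781 (2344 genes with quantile scaling) and 3, 3 and 4 in GNE-781 against A-485 (393, 395 and 388 genes). The added members were IRF7 and IFI6 in dCBP-1 against GNE-781, IRF1 in the combination against A-485, and IRF1 and GBP1, with IRF7 under quantile scaling, in GNE-781 against A-485. Called genes there were 990, 979 and 958 in the combination against A-485 and 1 each in non-additivity.

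These scalings also moved the split of calls. It was 56 higher and 289 lower in A-485 against DMSO (164 and 200 with TMM), 89 and 904 in dCBP-1 against the combination (337 and 1023), 352 and 1148 in dCBP-1 against GNE-781 (721 and 1409), and 263 and 253 in the combination against A-485 (283 and 707). The cause of these shifts was not tested.

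With 1 library left out, called genes ran from 2050 to 4277 in the combination, 1467 to 3689 in GNE-781 and 69 to 1138 in A-485, each against DMSO, from 0 to 1 in the combination against GNE-781, from 187 to 428 in the combination against A-485, from 57 to 111 in GNE-781 against A-485, and from 9 to 213 in non-additivity. Called members ran from 1 to 2 in the combination against DMSO, 1 to 3 in the combination against A-485 and 0 to 1 in GNE-781 against A-485. In dCBP-1 against DMSO called members ran from 4 to 6, beside 4982 to 6457 called genes. Both were lowest without dCBP-1 replicate 3.

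Replicate numbers did not pair the libraries: deviations of same-numbered libraries correlated at −0.53 to 0.40 over 30 pairs, 7 of them above 0.1, and 0 of 15 libraries correlated best with their own number. With a replicate block, 107 genes were called in GNE-781 against A-485 and 34 in non-additivity, and other counts stayed within 1.5 times.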
